A study of Homo sapiens with 40 samples.

Results

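The 37 genes of the human mitochondrial genome were described across 40 RNA-seq libraries of cells labelled as T-cell acute lymphoblastic leukaemia (T-ALL) lines, 8 of which go against that label, as described with their markers. They were taken as every gene whose symbol starts with MT-, which gave 37 of 62754 listed genes: 13 messenger RNA genes, 2 ribosomal RNA genes and 22 transfer RNA genes. The study asked what loss of QKI, an RNA-binding protein that acts in splicing, does to T-ALL cells. Jurkat cells were electroporated with siRNA against QKI or with non-targeting (NTC) siRNA, the control, in 4 replicates of each. A second knockdown used viral shRNA, against QKI or NTC, in cells that carry the label HPB-ALL, also in 4 replicates of each. Another 6 groups of 4 replicates were lines left untreated: ALL-SIL, DND-41, HPB-ALL, KARPAS-45, LOUCY and TALL-1. All are cultured human lines, with no allele or added agent stated beyond these. KARPAS-45, untreated HPB-ALL and the shRNA cells labelled HPB-ALL grew in 20% serum and the rest in 10%. The labels describe Jurkat RNA as total RNA and the other RNA as polyadenylated. The replicates are called biological replicates, but whether they came from separate cultures is not said, so p-values measure the spread between these libraries.

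Mitochondrial DNA is transcribed from both strands into long precursor RNAs, which are cut apart mainly where transfer RNAs lie between the other genes. Transcription of the heavy strand gives the ribosomal RNAs, most transfer RNAs and every messenger RNA except MT-ND6, the only messenger RNA made from the light strand. The encoded proteins are core subunits of respiratory complexes I, III, IV and V, and mitochondrial messenger RNAs carry short poly(A) tails, so oligo-dT selection can capture them. T-ALL lines are fast-growing cells that use respiration beside glycolysis.

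Because MT-ND6 is read from the opposite strand, its RNA has a base composition unlike that of its neighbours. It holds 35.6% G and 7.05% C, against 12% G and 33.1% C on average in the 12 heavy-strand messenger RNAs. The first 60 bases of MT-ND6 and of its neighbours MT-ND5 and MT-CYB are shown to make this visible, 5′ to 3′ in the sense of each RNA, with every G in capitals. They come from GENCODE 29 transcripts on GRCh38: MT-ND6 at chrM:14614-14673 on the minus strand, MT-ND5 at chrM:12337-12396 and MT-CYB at chrM:14747-14806 on the plus strand.

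MT-ND6: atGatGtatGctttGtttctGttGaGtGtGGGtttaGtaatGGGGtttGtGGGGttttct

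MT-ND5: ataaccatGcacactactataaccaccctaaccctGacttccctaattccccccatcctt

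MT-CYB: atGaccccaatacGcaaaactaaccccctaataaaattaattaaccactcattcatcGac

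The stretch holds 21 G in MT-ND6, 2 in MT-ND5 and 3 in MT-CYB. RNA of the heavy-strand precursor also covers the MT-ND6 locus in antisense. Whether counting used the strand is not stated by the sources, so MT-ND6 and its antisense RNA cannot be told apart.

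Genes on this genome can also overlap on the same strand. The last 76 bases of MT-ATP8 (chrM:8497-8572, plus strand) are shown with the 46 bases shared with MT-ATP6 in capitals.

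MT-ATP8: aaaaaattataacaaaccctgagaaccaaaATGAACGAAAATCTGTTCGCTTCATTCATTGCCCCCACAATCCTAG

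MT-ATP8 had at most 4.87 CPM (counts per 1e+06 gene counts, scaled with edgeR's TMM factors) in any library, and it was too low to test in either knockdown. Its own level cannot be read from these counts, since reads over the overlap belong to both genes. MT-ND4L and MT-ND4 share 7 bases, MT-TQ and MT-TI 3, and MT-ATP6 and MT-CO3 1.

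Libraries held 68.4 to 134 M gene counts (M, 1e+06) for Jurkat, 81.0 to 135 M for the cells labelled HPB-ALL and 44.1 to 84.0 M for the untreated lines. At that depth the 95% Wilson interval of a share of mitochondrial messenger RNA reached at most 0.0078 percentage points to either side, for counting error only. QKI had 24.9, 17.4, 18.2 and 25.3 CPM in Jurkat QKI siRNA libraries, against 148, 176, 137 and 133 CPM in control siRNA libraries. In the cells labelled HPB-ALL it had 54.5 to 57.7 CPM with the QKI shRNA, against 101 to 107 CPM with the control shRNA. These knockdown libraries go against their label: CD3D, CD3E and CD3G, chains of the T-cell receptor complex, averaged at most 0.011 CPM in either shRNA group. ELANE, a granule protease of myeloid cells, averaged 1713 CPM with the QKI shRNA and 1650 CPM with the control shRNA. In the untreated HPB-ALL libraries CD3D averaged 482 CPM and ELANE 0.027 CPM. The shRNA libraries are therefore called the libraries labelled HPB-ALL throughout. Their bearing on the mitochondrial results was not tested.

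Per kilobase of gene, MT-CO1, the catalytic subunit of complex IV, had the highest mean among the messenger RNAs in each of the 10 groups. It averaged 3437 CPM per kb in Jurkat QKI siRNA cells and 4054 in Jurkat control cells. In the libraries labelled HPB-ALL it averaged 3405 CPM per kb with the QKI shRNA and 3961 with the control shRNA. MT-CO2 and MT-CO3, the other complex IV subunits of this genome, came next in all groups but KARPAS-45, where MT-ND4, a membrane subunit of complex I, took the third place at 785 CPM per kb. With MT-ATP8 left aside, MT-ND6, also a complex I subunit, was the lowest messenger RNA per kilobase in 8 groups, at 4.14 CPM per kb with the QKI shRNA and 246 CPM per kb in ALL-SIL. Jurkat was the exception. There MT-ND4L, another membrane subunit of complex I, averaged 3.55 CPM per kb with the QKI siRNA and 3.20 with the control siRNA, below MT-ND6 at 10.6 and 18.4 CPM per kb. MT-ND4L per 100 MT-ND4, both per kilobase, was 1.79 and 1.37 in these Jurkat groups, 23.9 and 28.9 in the shRNA groups and 18.8 to 46.2 in the untreated lines. Both genes are cut from the heavy-strand precursor as a single shared messenger RNA, as are MT-ATP8 and MT-ATP6. RNA type and table differ together between Jurkat and the others, so their parts in this difference cannot be told apart.

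**Figure D1:**
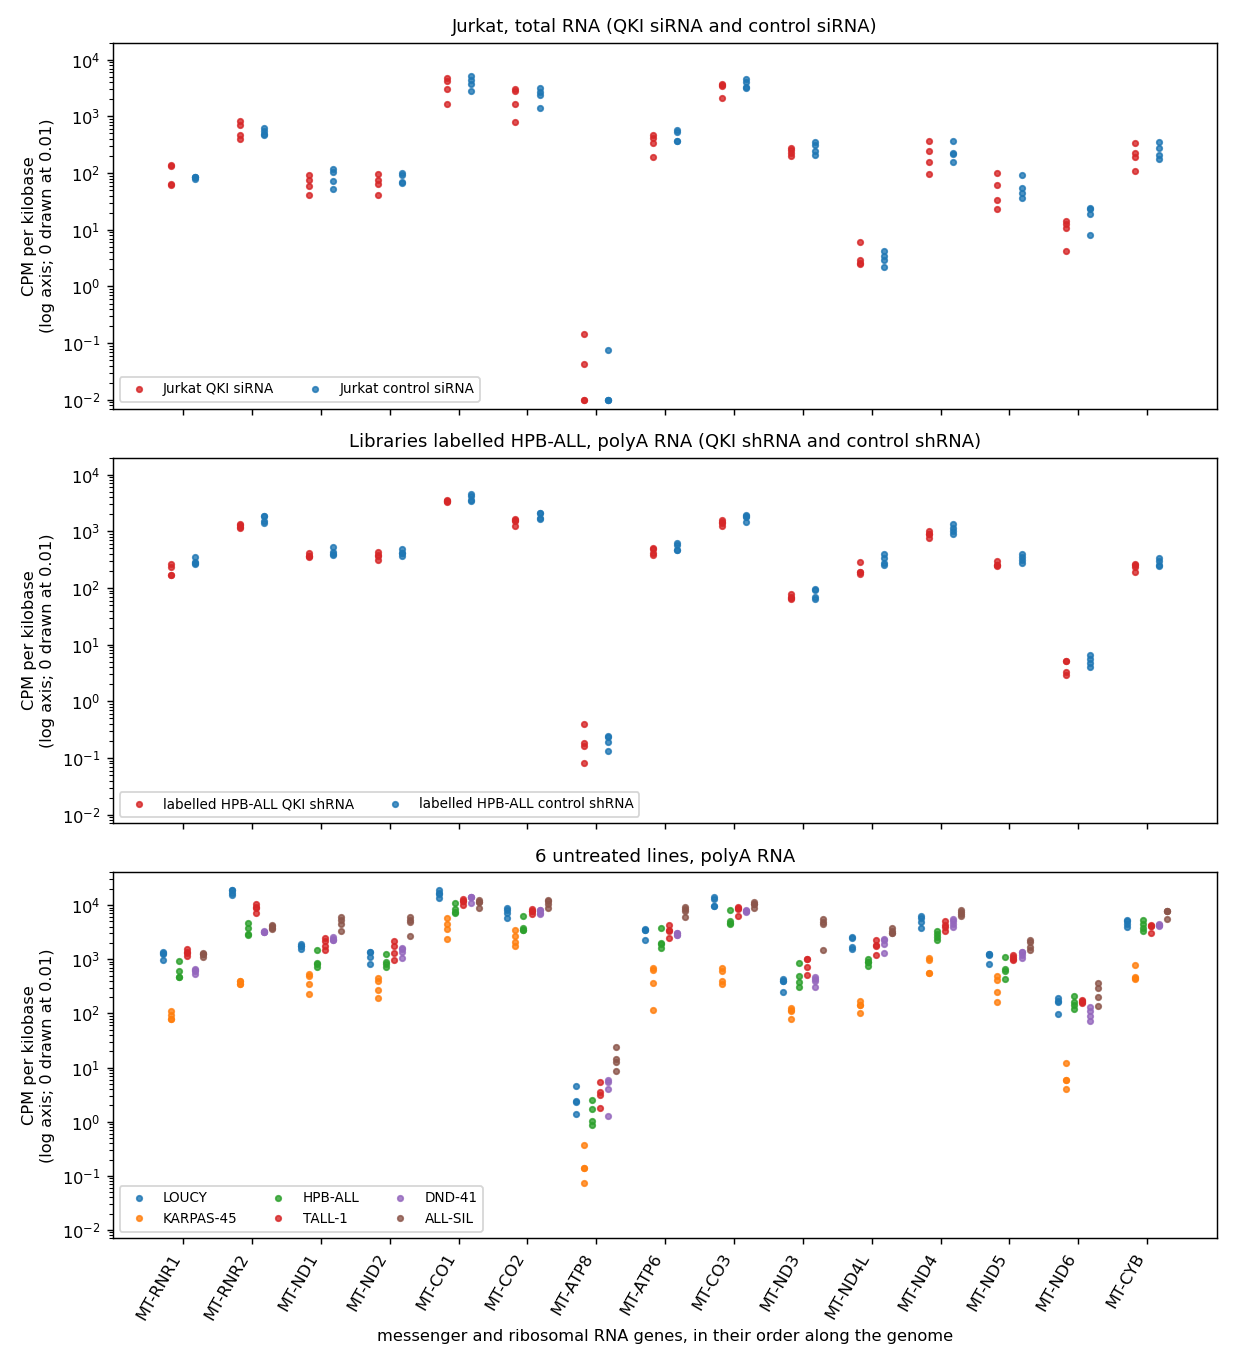
CPM per kilobase (log axis) of the messenger and ribosomal RNA genes in each of the 40 libraries, in genome order, 1 point per library, for Jurkat, the libraries labelled HPB-ALL and the 6 untreated lines. MT-CO1 tops the messenger RNAs, MT-ATP8 is near 0, MT-ND4L is low in Jurkat, and KARPAS-45 lies at the bottom of most columns of the untreated lines.

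Mitochondrial messenger RNA made up 1.46%, 1.27%, 0.50% and 0.911% of gene counts in Jurkat QKI siRNA replicates 1 to 4, against 1.62%, 1.20%, 0.847% and 1.31% in control siRNA replicates 1 to 4. The groups overlapped, and replicate 3 was the lowest of each. In the libraries labelled HPB-ALL the shares were 1.12%, 1.07%, 1.02% and 0.997% with the QKI shRNA, against 1.36%, 1.09%, 1.45% and 1.13% with the control shRNA, again overlapping. Among the untreated lines KARPAS-45 stood lowest at 1.01% ± 0.338 (SD, n = 4), below the other 5 at 3.78% ± 0.681 in HPB-ALL to 7.11% ± 0.973 in ALL-SIL. In bulk RNA a lower share can mean fewer cells with the RNA or less RNA per cell, and these cannot be told apart.

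The mix of messenger RNAs differed more between tables than between groups of a knockdown. The 3 complex IV genes took 87.8% to 90.3% of mitochondrial messenger RNA counts across the 8 Jurkat libraries and 68.8% to 71.5% across the 8 libraries labelled HPB-ALL. In ALL-SIL they took 42.7% to 50.2%, the lowest range of the 6 untreated lines, and in KARPAS-45 66.5% to 74.8%. Histone genes, whose RNA lacks poly(A), took 1.65% to 5.6% of counts in Jurkat and 0.00504% to 0.00677% in the libraries labelled HPB-ALL.

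**Figure D2:**
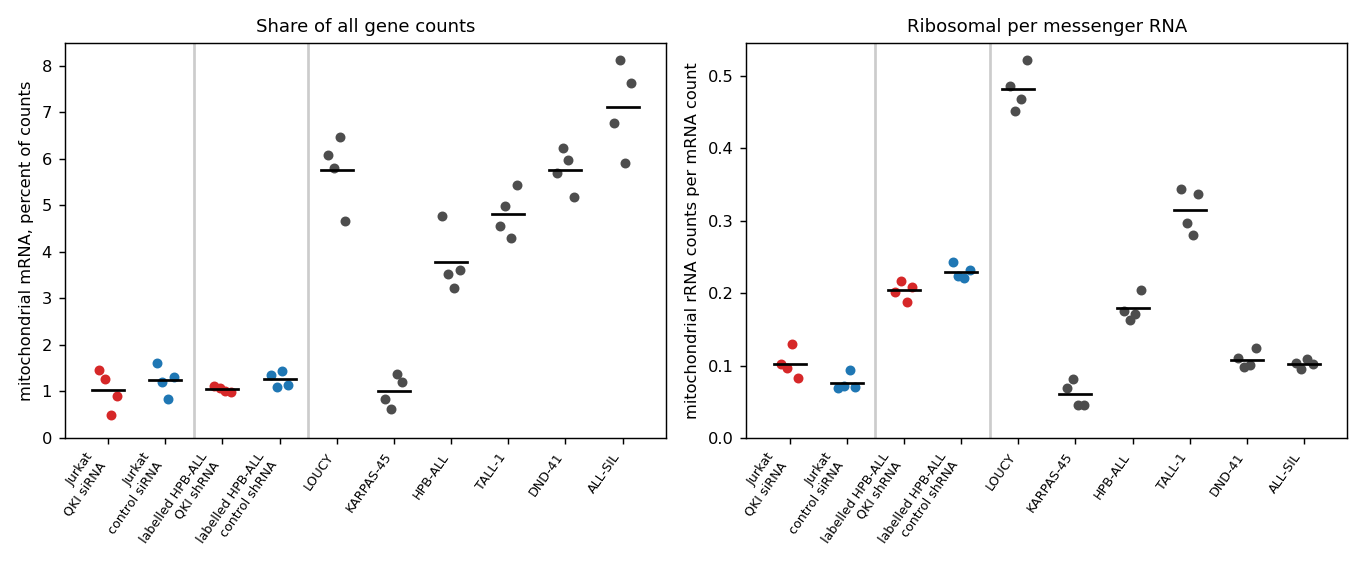
Left, mitochondrial messenger RNA as a percent of all gene counts, right, mitochondrial ribosomal RNA counts per mitochondrial messenger RNA count, 1 point per library with the group mean as a line. KARPAS-45 is lowest in both panels among the lines, and LOUCY holds the most ribosomal RNA per messenger RNA.

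Knockdown of QKI in Jurkat gave no called member when the libraries were compared without regard to their numbers. Of the 20 members that passed the filter on low counts (12 messenger, 2 ribosomal and 6 transfer RNA genes), 0 were called by edgeR's quasi-likelihood test at a Benjamini-Hochberg adjusted p under 0.05, where 0.0047% of all 21296 genes tested were called, which is QKI alone. At an unadjusted p under 0.05 there was 1, MT-TS1. The share of all genes under that unadjusted p is not given, so this count is not read as a result. DESeq2 and limma-voom called 0 each. The median log2 fold change was -0.24 over the 12 messenger RNAs, 11 of them below 0, beside 0.00077 over all genes tested. In none of the 20 did the QKI siRNA and control siRNA libraries separate completely, which 0.676% of all genes did with the QKI siRNA lower and 0.39% with it higher.

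MT-ND6 stood apart from the other messenger RNAs once replicates of the same number were compared. It had 7.63, 6.66, 2.23 and 5.71 CPM in QKI siRNA replicates 1 to 4, against 12.5, 12.1, 4.31 and 9.80 CPM in control siRNA replicates 1 to 4. The groups overlapped, because replicate 3 was low in each, but the QKI siRNA library was the lower one in each same-numbered pair. The log2 ratio of the pairs was -0.71, -0.86, -0.95 and -0.78. Among the 20 members tested, MT-TS1, a serine transfer RNA also read from the light strand, was the other one lower in 4 of 4 pairs. The share of all genes lower in 4 of 4 pairs is not given, so this count is not read as a result.

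Deviations from the group means of same-numbered Jurkat libraries were correlated in each of the 4 pairs (r from 0.337 to 0.556), so the numbers were taken to pair the libraries. The separation is not clean: of 12 pairs with different numbers, 4 also had r above 0.1, the highest at 0.36. Calls made with the block depend on this pairing. What a number stands for is not in the labels. With the number as a block, edgeR called 9 of the 21296 genes (0.0423%), and MT-ND6 was the 1 member among them. Its log2 fold change was -0.82 (SE 0.09, adjusted p = 0.00409), against -0.80 (SE 0.39, adjusted p = 1) without the block. Leaving out 1 number at a time kept it called, with an edgeR adjusted p of 0.00927 to 0.0459. MT-ATP6, a subunit of the proton channel of complex V, was at -0.42 (adjusted p = 0.735) with the block, and at -0.62 (adjusted p = 0.0109) when number 2 was left out. MT-TP, the proline transfer RNA, was at -0.75 (adjusted p = 0.55) with the block and MT-TS1 at -0.88 (adjusted p = 0.71).

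Set against the heavy-strand messenger RNAs of the same library, the difference in MT-ND6 was smaller. MT-ND6 had 0.554, 0.523, 0.417 and 0.603 counts per 1000 heavy-strand messenger RNA counts with the QKI siRNA, against 0.823, 1.08, 0.482 and 0.734 with the control siRNA. The ratio was lower with the QKI siRNA in each pair, the groups overlapped, and their mean log2 difference of -0.53 was larger than the pooled SD of 0.38. With these RNAs as the library size, edgeR gave MT-ND6 a log2 difference of -0.57 (adjusted p = 0.777), and -0.53 (adjusted p = 0.552) with the block. This scale moves every gene by the opposite of the difference in the summed heavy-strand messenger RNAs, which averaged -0.30 log2 in QKI siRNA over control siRNA libraries.

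The heavy-strand messenger RNAs had no common direction over the 4 pairs. MT-CO1 had 7328, 6559, 2580 and 4730 CPM with the QKI siRNA, against 8082, 5827, 4391 and 6707 CPM with the control siRNA. MT-CYB, the cytochrome b of complex III, had 394, 261, 123 and 222 CPM with the QKI siRNA, against 406, 237, 206 and 314 CPM with the control siRNA. For both genes the QKI siRNA library was the higher one in pair 2 and the lower one in the others, while MT-ND2, MT-ND4, MT-ND4L and MT-ND5 were higher with the QKI siRNA in pair 1 as well. Fitted log2 fold changes of the remaining complex I messenger RNAs ran from -0.37 for MT-ND1 to 0.16 for MT-ND4L.

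The ribosomal RNAs split by replicate. MT-RNR1, the RNA of the small mitochondrial ribosomal subunit, had 131, 128, 60.3 and 59.3 CPM in QKI siRNA replicates 1 to 4, against 80.2, 81.6, 82.4 and 74.0 CPM in control siRNA replicates 1 to 4. MT-RNR2, the RNA of the large subunit, had 1272, 1095, 630 and 728 CPM with the QKI siRNA, against 961, 720, 762 and 866 CPM with the control siRNA. For each gene the QKI siRNA library was the higher one in pairs 1 and 2 and the lower one in pairs 3 and 4, while control libraries lay close together. Fitted log2 fold changes were 0.25 (SE 0.26) and 0.17 (SE 0.22), not called by edgeR. Ribosomal per messenger RNA counts were 0.102, 0.0959, 0.129 and 0.0831 with the QKI siRNA, against 0.0684, 0.0714, 0.0943 and 0.0704 with the control siRNA, with the QKI siRNA library higher in each pair and the groups overlapping.

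**Figure D3:**
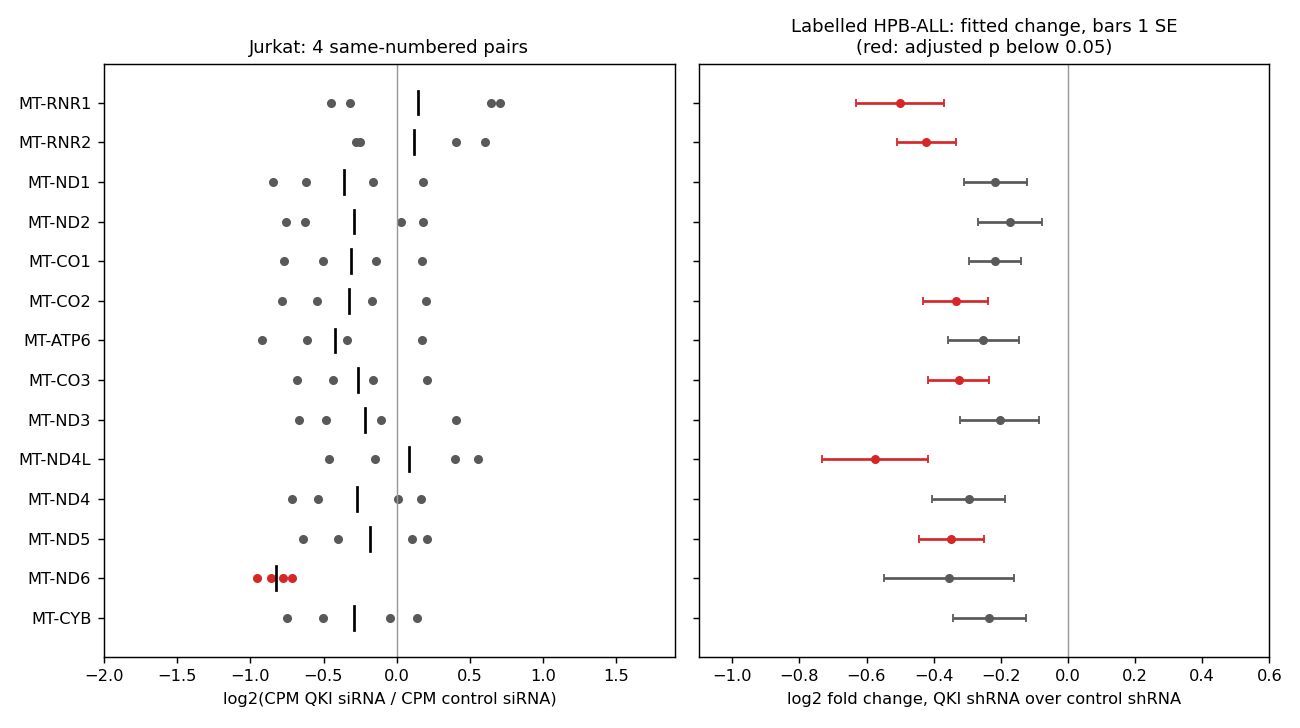
Left, log2 ratio of CPM in QKI siRNA over control siRNA Jurkat libraries for each same-numbered pair (points) with their mean (bar), right, fitted log2 fold changes of QKI shRNA over control shRNA in the libraries labelled HPB-ALL with bars of 1 SE. The 4 points of MT-ND6 (red, left) lie between -0.95 and -0.71, and 6 genes (red, right) have an adjusted p under 0.05.

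In the libraries labelled HPB-ALL, both ribosomal RNAs and 4 of the 12 messenger RNAs tested were lower with the QKI shRNA. Of 15 members tested (12 messenger RNAs, 2 ribosomal RNAs and the threonine transfer RNA MT-TT), 6 fell and 0 rose, with 10.4% of the 17974 genes tested lower and 12.8% higher. The 6 were MT-RNR1, MT-RNR2, MT-CO2, MT-CO3, MT-ND4L and MT-ND5, and the other 9 were not called. MT-TT was at -0.11 (SE 0.31, edgeR adjusted p = 0.837), with overlapping groups. The median log2 fold change of the 12 messenger RNAs was -0.27, beside -0.0055 over all genes tested.

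Both ribosomal RNAs fell. MT-RNR1 had 222, 248, 162 and 165 CPM in QKI shRNA libraries, against 336, 262, 256 and 274 CPM in control shRNA libraries. MT-RNR2 had 2052, 2073, 1760 and 1887 CPM with the QKI shRNA, against 2913, 2226, 2881 and 2393 CPM with the control shRNA. In each gene every QKI shRNA library lay below every control library, which held for 11.7% of all genes tested in this direction, and replicates 3 and 4 of the QKI shRNA were the lowest. The log2 fold change in edgeR's quasi-likelihood fit was -0.50 (SE 0.13, adjusted p = 0.0164) for MT-RNR1 and -0.42 (SE 0.09, adjusted p = 0.0051) for MT-RNR2. Ribosomal per messenger RNA counts, which ran from 0.188 to 0.217 with the QKI shRNA and from 0.220 to 0.243 with the control shRNA, did not overlap either.

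Of the complex IV messenger RNAs, MT-CO2 and MT-CO3 fell. MT-CO2 had 1128, 1039, 1092 and 849 CPM with the QKI shRNA, against 1424, 1137, 1448 and 1171 CPM with the control shRNA, and its groups did not overlap (log2 fold change -0.33, SE 0.10, edgeR adjusted p = 0.0275). MT-CO3 had 1154, 1240, 1090 and 963 CPM with the QKI shRNA, against 1394, 1160, 1478 and 1540 CPM with the control shRNA, with control replicate 2 inside the QKI shRNA range (-0.33, SE 0.09, edgeR adjusted p = 0.0223). MT-CO1 was at -0.22 (SE 0.08, edgeR adjusted p = 0.0614).

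Among complex I messenger RNAs, MT-ND4L and MT-ND5 fell. MT-ND4L had 57.6, 84.0, 52.1 and 57.5 CPM with the QKI shRNA, against 80.4, 74.2, 117 and 102 CPM with the control shRNA, and QKI shRNA replicate 2 lay above control replicates 1 and 2 (log2 fold change -0.57, SE 0.16, edgeR adjusted p = 0.0209). MT-ND5, a proton-pumping subunit, had 540, 467, 466 and 446 CPM with the QKI shRNA, against 641, 566, 726 and 508 CPM with the control shRNA (-0.35, SE 0.10, edgeR adjusted p = 0.0213). Only QKI shRNA replicate 1 reached into the control range. MT-ND1, MT-ND2, MT-ND3 and MT-ND4 were at -0.22, -0.17, -0.20 and -0.30, MT-ATP6 at -0.25 and MT-CYB at -0.23, none of them called. MT-ND6, at 2.69, 2.74, 1.55 and 1.71 CPM with the QKI shRNA and 2.45, 2.98, 3.49 and 2.14 CPM with the control shRNA, was at -0.35 (SE 0.19, adjusted p = 0.213) with overlapping groups.

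With the replicate number as a block 7 members were called, where 17% of all genes were, although the numbers do not pair these libraries. The count of 6 rests on few libraries. It was 3 without QKI shRNA replicate 3, 2 without QKI shRNA replicate 4 and 3 without control shRNA replicate 3. With the heavy-strand messenger RNAs as the library size it was 1, MT-ND4L at a log2 difference of -0.32 (edgeR adjusted p = 0.0333), and the ribosomal RNAs were at -0.26 (MT-RNR1, adjusted p = 0.0923) and -0.16 (MT-RNR2, adjusted p = 0.329). The heavy-strand messenger RNAs themselves averaged -0.25 log2 in QKI shRNA over control shRNA libraries.

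No difference between the knockdown effects was called. Fitted over both experiments, 0 of 14 members differed by edgeR, where 0.0254% of the 15730 genes tested did. At an unadjusted p under 0.05 there were 2, not read as a result, since the share of all genes there is not given. DESeq2 and limma-voom also called 0, and so did the fit with the replicate number as a block, where 2.78% of genes were called. The Jurkat effect minus that of the libraries labelled HPB-ALL was 0.75 (SE 0.33, adjusted p = 0.758) for MT-RNR1, 0.59 (SE 0.26, adjusted p = 0.758) for MT-RNR2 and -0.45 (SE 0.51, adjusted p = 0.999) for MT-ND6. The call of MT-ND6 in paired Jurkat libraries is thus not shown to be particular to Jurkat, nor the fall of the ribosomal RNAs to the other cells.

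The 6 untreated lines differed in every member that could be tested, 24 of 24 by edgeR's F test, but so did 98% of the 20348 genes tested. The lines are therefore described by which genes stood where. Each line was set against the mean of the other 5, a mean that includes KARPAS-45 for every other line.

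KARPAS-45 had the least mitochondrial messenger and ribosomal RNA. The 13 messenger and 2 ribosomal RNAs were lower there than in the mean of the other 5 lines (adjusted p under 0.05 by edgeR), where 34.2% of all genes were, and each was called lower in all 5 pairwise comparisons with another line. MT-ATP8 is among them with at most 0.0767 CPM in a KARPAS-45 library. The 9 transfer RNAs tested had at most 0.782 CPM there. MT-ATP8 and these transfer RNAs, of which MT-TF and MT-TW had 0 counts and MT-TA had 1, passed the filter on low counts only through other lines. That they are lower in KARPAS-45 is therefore not read as a result. Of all genes, 38.7% were lower in KARPAS-45 than in LOUCY, 41.8% than in HPB-ALL, 35.9% than in TALL-1, 38.4% than in DND-41 and 37.4% than in ALL-SIL. For 11 of the 13 messenger RNAs and both ribosomal RNAs every KARPAS-45 library lay below all 20 libraries of the other lines. MT-ATP8 is among these 11, and its place there is likewise not read as a result. MT-CO2 and MT-ND5 were the exceptions, with highest KARPAS-45 values of 2363 and 875 CPM and lowest values elsewhere of 2361 and 793 CPM.

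The depth of this fall differed from gene to gene. MT-CO1 had 5645, 3607, 9040 and 6935 CPM in KARPAS-45, against 11120 to 29340 CPM in libraries of the other lines (log2 fold change -1.54, SE 0.18). MT-CO2 was at -1.54 (SE 0.18) and MT-ND5 at -1.80 (SE 0.23). MT-CO3 fell much further: it had 278, 312, 546 and 466 CPM in KARPAS-45, against 3486 to 10890 CPM elsewhere (-4.04, SE 0.22). Per kilobase, MT-CO3 was at 12.9 ± 3.07 per 100 MT-CO1 in KARPAS-45 (SD, n = 4), against line means of 57.9 to 93.5 in the other 5 lines, and no library of another line was below 53.1. MT-CO3 and MT-CO1 thus kept no constant ratio, although both belong to complex IV and to the same precursor.

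MT-ND4L (-3.71, SE 0.21), MT-CYB (-3.14, SE 0.18) and MT-ATP6 (-2.99, SE 0.33) were further low messenger RNAs of KARPAS-45. MT-ND6 fell further than any other messenger RNA in the fit, with 3.07, 2.11, 3.05 and 6.24 CPM in KARPAS-45 against 37.3 to 190 CPM elsewhere (-4.52, SE 0.31). Of the ribosomal RNAs, MT-RNR2 had 606, 533, 622 and 550 CPM in KARPAS-45, against 4412 to 30090 CPM elsewhere (-3.99, SE 0.16), and MT-RNR1 was at -3.38 (SE 0.18). The summed heavy-strand messenger RNAs were at -2.18 log2 in KARPAS-45 relative to the mean of the other 5 lines, so these genes lay below that sum as well. With that sum as the library size 21 of the 24 members were called in KARPAS-45, in one direction or the other. That scale moves every gene by the opposite of the sum, and the share of all genes called on it is not given. The count of 21 is therefore not read as a result. QKI had 6.04 to 7.74 CPM in KARPAS-45 libraries and 0 counts in the 4 LOUCY libraries, and its relation to these levels was not tested.

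ALL-SIL had the most mitochondrial messenger RNA. It was called higher for 20 of 24 members, with 33.8% of all genes higher, and lower for 0, with 25.4% of all genes lower. MT-ND3, a small complex I subunit, had 521.5, 1873, 1653 and 1542 CPM in ALL-SIL, against line means of 37.3 to 284 CPM (log2 fold change 3.46, SE 0.20), and replicate 1 of ALL-SIL stood apart from its other 3 libraries while still above all libraries of other lines. MT-ND2 averaged 4928 ± 1500 CPM in ALL-SIL, MT-ATP6 5401 ± 918 and MT-ND1 4607 ± 1129 (SD, n = 4), against 1609, 2312 and 2243 CPM in the next highest line. MT-CO1 was the messenger RNA not called in ALL-SIL, and its per-kilobase level of 11060 CPM there was near that of MT-CO2 at 10830 and MT-CO3 at 10300. MT-CO2 per 100 MT-CO1, per kilobase, was 98.2 ± 8.48 in ALL-SIL and 45.8 to 66.6 on average in the other lines.

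**Figure D4:**
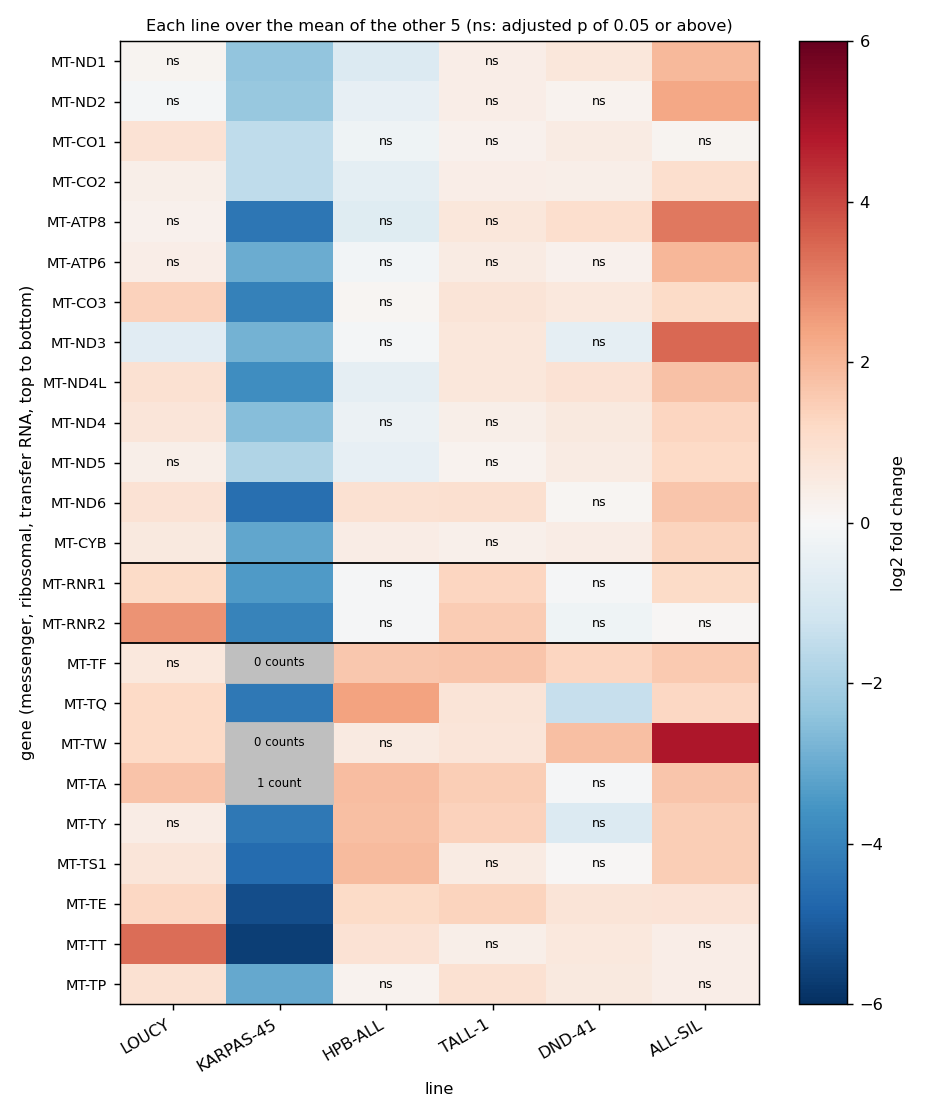
Fitted log2 fold change of each line over the mean of the other 5 for the 24 members tested; ns marks an adjusted p of 0.05 or above, and grey cells are genes with 0 or 1 counts over the 4 libraries of a line, where no fold is shown. The KARPAS-45 column is blue wherever a fold is shown. Its folds of MT-ATP8 and of the transfer RNAs, which passed the filter through other lines, are not read as results. ALL-SIL is red in most messenger RNAs, and LOUCY is darkest for MT-TT and MT-RNR2.

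LOUCY, a line of early T-precursor type, was marked by ribosomal RNA. It was called higher for 16 members (37.3% of all genes) and lower for MT-ND3 (-0.70, SE 0.26; 28.5% of all genes). MT-RNR2 had 29795, 25669, 30090 and 24199 CPM in LOUCY, against 11042 to 16392 CPM in TALL-1, the next line, and at most 7147 CPM in the others (log2 fold change over the mean of the other 5 lines 2.7, SE 0.10). No library of another line reached the LOUCY range, and the step to TALL-1 was itself called (0.97, SE 0.16, edgeR adjusted p = 6.98e-06). MT-RNR1 did not follow: LOUCY averaged 1166 ± 172 CPM (SD, n = 4), not separated from TALL-1 at 1269 ± 152 or ALL-SIL at 1174 ± 94.0. MT-RNR2 counts per MT-RNR1 count were 20.2 to 26.5 in LOUCY and 4.37 to 13.5 in libraries of the other lines. Ribosomal per messenger RNA counts ran from 0.451 to 0.522 in LOUCY and from 0.281 to 0.343 in TALL-1, and reached at most 0.205 in the other 4 lines.

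The other 3 lines lay between. TALL-1 was called higher for 14 members (32.9% of all genes), with MT-RNR2 at 1.53 and MT-RNR1 at 1.27, and lower for 0 (24.4%). DND-41 was called higher for 14 (34.3%), among them MT-ND1 at 0.69 and MT-ND4L at 0.85, and lower for the glutamine transfer RNA MT-TQ (-1.36; 23.3%). Untreated HPB-ALL was called higher for 9 (39.6%), which were MT-ND6, MT-CYB and 7 transfer RNAs, relative to a mean that KARPAS-45 lowers. By level HPB-ALL was the third of the lines for MT-ND6 and the fourth for MT-CYB, at 4804 CPM, not called apart from its neighbours in either order. It was called lower for 5 (23.3%), which were MT-ND1 (-0.83), MT-CO2 (-0.61), MT-ND4L (-0.52), MT-ND2 (-0.51) and MT-ND5 (-0.49). The calls of MT-ND2 (edgeR adjusted p = 0.05, just under it before rounding) and MT-ND5 (edgeR adjusted p = 0.0463) were lost in 17 and 16 of 30 alternatives. The median over all genes was 0.15 in HPB-ALL, so its higher genes are read against that shift. Between pairs of these lines and LOUCY, called members ran from 5 of 24 for LOUCY against TALL-1 (66.7% of all genes) to 13 of 24 for LOUCY against HPB-ALL (66.8%) and HPB-ALL against DND-41 (55.8%).

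MT-ND6 did not track the heavy-strand messenger RNAs across the lines. Per 1000 of their counts it had 0.312, 0.284, 0.189 and 0.450 in KARPAS-45, 2.04 to 2.99 in HPB-ALL, 0.953 to 3.05 in ALL-SIL, 1.64 to 1.95 in TALL-1, 0.756 to 1.83 in LOUCY and 0.684 to 1.34 in DND-41. KARPAS-45 was below every other line, and the ranges of the other 5 overlapped with a neighbour. The mean log2 difference from the other 5 lines was -2.42 in KARPAS-45, 1.23 in HPB-ALL, 0.71 in TALL-1 and 0.62 in ALL-SIL, each larger than the pooled SD of 0.46, and 0.19 in LOUCY and -0.32 in DND-41, which were not. For every line but KARPAS-45 that mean includes the low ratio of KARPAS-45, which raises the difference. Whether it exceeds the SD therefore does not set those lines apart from one another. In plain CPM the order was ALL-SIL at 129 ± 52.4, TALL-1 at 86.6 ± 4.78, HPB-ALL at 83.4 ± 20.0, LOUCY at 81.1 ± 21.3, DND-41 at 52.6 ± 13.2 and KARPAS-45 at 3.62 ± 1.81 (SD, n = 4 each). No neighbours in that order were called apart except DND-41 and KARPAS-45. The ratio was 0.152 to 0.267 in the libraries labelled HPB-ALL, with 0.239, 0.257, 0.152 and 0.174 for the QKI shRNA and 0.184, 0.267, 0.245 and 0.186 for the control shRNA, a log2 difference of -0.12 with a pooled SD of 0.32.

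**Figure D5:**
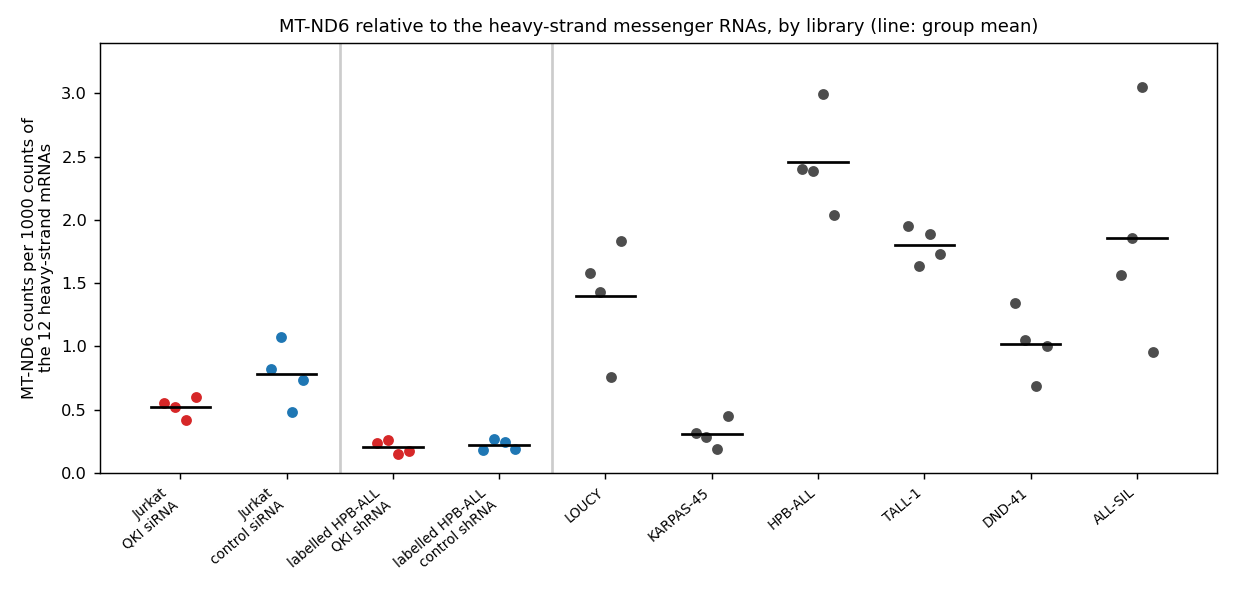
MT-ND6 counts per 1000 counts of the 12 heavy-strand messenger RNAs in each library, with the group mean as a line. Jurkat QKI siRNA libraries lie at 0.417 to 0.603 and control siRNA libraries at 0.482 to 1.08, and KARPAS-45 lies at 0.189 to 0.450, below the other 5 untreated lines.

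Transfer RNAs, at 59 to 75 bases, were barely counted. Of 22, 14 had 0 counts in all Jurkat libraries, 15 in all libraries labelled HPB-ALL and 10 in all libraries of the untreated lines. All transfer RNAs together gave 433 to 1655 counts per Jurkat library and 22 to 55 per library labelled HPB-ALL. Those read from the light strand, 8 of the 22, took 86.5% of transfer RNA counts in Jurkat, 45.8% in the libraries labelled HPB-ALL and 66.5% in the lines. A pair of neighbours at the end of the gene-bearing part of the genome carried most of the counts in some groups: MT-TT, read with the heavy strand (chrM:15888-15953), and MT-TP, read with the light strand (chrM:15956-16023, minus strand). Their sequences are shown because MT-TT marks LOUCY and MT-TP leads in Jurkat.

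MT-TT: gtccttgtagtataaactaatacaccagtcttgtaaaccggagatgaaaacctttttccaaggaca

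MT-TP: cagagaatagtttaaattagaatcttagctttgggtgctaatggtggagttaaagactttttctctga

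MT-TT had 14.1, 13.6, 16.6 and 12.6 CPM in LOUCY, against 0.0152 to 5.63 CPM in the libraries of the other lines. No library of another line came near LOUCY, with a log2 fold change of 3.34 (SE 0.19) and an edgeR adjusted p of 3.91e-14. MT-TT starts where MT-CYB ends, and MT-CYB itself was at 0.60 (SE 0.14) in LOUCY. MT-TW, the tryptophan transfer RNA, had 3.91, 9.20, 9.62 and 6.27 CPM in ALL-SIL, against line means of 0.589 to 1.23 CPM in 4 lines and 0 counts in all 4 KARPAS-45 libraries. MT-TQ had 16.5, 9.18, 9.66 and 6.13 CPM in HPB-ALL, where the next line, ALL-SIL, averaged 5.25 ± 1.37 CPM (SD, n = 4), and that step was called (0.98, SE 0.25, edgeR adjusted p = 0.00158). MT-TF, the phenylalanine transfer RNA, was also at 0 counts in KARPAS-45. MT-TF and MT-TW passed the filter through the other lines, so no fold is given for KARPAS-45. MT-TA, the alanine transfer RNA, had 1 count in the 4 KARPAS-45 libraries together, where the other lines averaged 0.26 to 0.802 CPM. The highest KARPAS-45 library had 0.291 CPM for MT-TQ, 0.153 for MT-TY (tyrosine), 0.169 for MT-TS1, 0.0920 for MT-TE (glutamate), 0.184 for MT-TT and 0.782 for MT-TP. These too passed the filter through other lines, so their folds in KARPAS-45 are not read as results. MT-TF averaged 0.282 CPM in HPB-ALL, beside 0.297 in TALL-1 and 0.272 in ALL-SIL, neighbours not called apart. In Jurkat, MT-TP had 1.43, 3.10, 4.80 and 4.88 CPM with the QKI siRNA, against 3.17, 2.89, 9.83 and 8.88 CPM with the control siRNA, higher in replicates 3 and 4 of either group.

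Nuclear DNA carries copies of mitochondrial genes, and reads that match a copy and a member can be split between them. Of 404 such copies listed, 70 had any count in Jurkat, 67 in the libraries labelled HPB-ALL and 106 in the lines. The copies took 0.0236 to 0.0336 counts per 100 member counts in Jurkat, 0.102 to 0.128 in the libraries labelled HPB-ALL and 0.0629 to 1.74 in the lines. MTATP6P1, a copy of MT-ATP6, and MTCO1P12, a copy of MT-CO1, led in the knockdowns, at 0.790 and 0.895 CPM on average in Jurkat and 12.8 and 1.74 CPM in the libraries labelled HPB-ALL. MTND5P42, MTCO2P2 and MTND2P2 came next in Jurkat, at 0.123 to 0.153 CPM, and MTND2P28, MTCO3P12 and MTND6P21 in the libraries labelled HPB-ALL, at 0.0967 to 0.410 CPM. In the lines MTATP6P1 averaged 426 CPM, MTCO2P12 50.5, MTCO1P12 24.8, MTCO3P12 3.09 and MTND2P28 2.00. Over their libraries MTATP6P1 ran from 2.535 to 1199 CPM and MTCO2P12 from 0.0714 to 198. Against the mean of the other 5 lines, MTATP6P1 was highest in ALL-SIL (log2 fold change 2.50). MTCO2P12 was at 6.40 in ALL-SIL and 5.83 in LOUCY, and below that mean in the other lines. The ratio per 100 member counts pools all members and does not show such differences by gene and line. MTCO1P12 fell with the QKI shRNA (log2 fold change -0.44, SE 0.09, edgeR adjusted p = 0.00544). All 13 copies tested were called lower in KARPAS-45, where 34.2% of all genes were. Some were counted mainly in another line, such as MTND4LP30 in TALL-1 (log2 fold change 5.41) and MTCO1P2 in DND-41 (6.11). Such copies passed the filter through those lines. Others were near the floor over all lines, such as MTND1P23, MTND4P35 and MTCO2P2 at an average log2 CPM of -2.34, -2.845 and -2.81. The count of 13 copies lower in KARPAS-45 is therefore not read as a result. Stretches of each member were searched for only in annotated nuclear copies whose symbol starts with MT. Of stretches of 100 bases, 27.9% in MT-CO1, 26.1% in MT-ND2, 11.9% in MT-ATP6 and 11% in MT-ND1 were found unaltered there. The share was 4.38% in MT-CO3 and 2.39% in MT-CO2. It was 0% in MT-ND6, MT-RNR1, MT-RNR2, MT-ND3 and MT-ND4L. Of stretches of 50 bases, 49.5% in MT-CO1, 17.9% in MT-ND6 and 14.0% in MT-RNR2 were found in such a copy. For MT-RNR1, MT-ND3 and MT-ND4L the share was 0%. Shorter reads thus leave MT-ND6 and MT-RNR2 uncertain as well. The rest of the nuclear genome was not searched, so 0% does not mean that a gene has no matching nuclear sequence.

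Of 60 nuclear genes that copy, transcribe and process mitochondrial DNA, edgeR called 0 in Jurkat without or with the block. Of all genes, 0.0047% and 0.0423% were called, so this share is at the background. At an unadjusted p under 0.05 there were 0 and 4, not read as a result, since the share of all genes there is not given. In Jurkat GRSF1, which gathers mitochondrial RNA in granules and binds the MT-ND6 transcript, was at 0.041. FASTK, needed for MT-ND6 messenger RNA, was at 0.035. SUPV3L1 and PNPT1, the helicase and nuclease that degrade mitochondrial RNA, were at 0.033 and -0.036. LRPPRC and SLIRP, which stabilise heavy-strand messenger RNAs, were at 0.12 and 0.11, TFAM, the packaging and transcription factor, at 0.088, and POLRMT, the RNA polymerase, at 0.22.

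In the libraries labelled HPB-ALL 14 of the 60 were called, 10 higher and 4 lower, a share of 23.3% beside 23.2% of all genes. TK2 and RRM2B, which supply nucleotides for mitochondrial DNA, fell by 0.44 and 0.19 on the log2 scale, as did the coactivator PPARGC1A by 0.19 and the RNA nuclease REXO2 by 0.15. ESRRA, a nuclear receptor of mitochondrial genes, rose by 0.27, PPRC1, a coactivator, by 0.28, MRM1, a methylase of ribosomal RNA, by 0.34, GTPBP3, a modifier of transfer RNA, by 0.19, and FASTK by 0.17. MGME1, a nuclease of mitochondrial DNA, rose by 0.32 and GRSF1 by 0.14 (edgeR adjusted p = 0.024). TFAM, POLRMT, LRPPRC and SUPV3L1 were within 0.05 of 0, PNPT1 was at 0.10 and SLIRP at -0.18, none called. Of 77 mitochondrial ribosomal protein genes, 4 were higher (12.8% of all genes) and 12 lower (10.4% of all genes) with the QKI shRNA, and 0 were called in Jurkat (0.0047% of all genes).

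Across the lines 56 of the 60 genes differed by the F test, 93.3% beside 98% of all genes. The smallest p-values belonged to MTERF1 and MTERF2, members of a family that binds mitochondrial DNA, SAMHD1, which removes nucleotides, and GABPA, a nuclear factor that activates genes for mitochondrial proteins. MTERF2 averaged 0.322 ± 0.114 CPM in KARPAS-45 (SD, n = 4), against 1.20 CPM in ALL-SIL and 9.66 to 28.3 CPM in the other 4. MTERF1 averaged 26.8 ± 1.02 CPM in KARPAS-45, the highest of the 6, and was near 0 in DND-41 at 0.00486 CPM. SAMHD1 averaged 22.6 ± 3.93 CPM in ALL-SIL, against 0.454 to 1.58 CPM in the other lines. GABPA averaged 169 ± 5.17 CPM in TALL-1 and 158 ± 9.24 in KARPAS-45, against 50.1 to 64.0 CPM in the others. In KARPAS-45, 36 of the 60 genes were called higher (39% of all genes) and 12 lower (34.2% of all genes).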

How the data were processed

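RNA-seq gene counts of 40 libraries were deposited by the authors as 3 tables of raw whole-number counts, not normalized. Per the submitters' processing notes, reads were trimmed with Trimmomatic 0.39 and aligned with STAR 2.7.11b to GRCh38. The counting tool and strand setting are not stated. The tables list 62754 genes, 62700 of which matched a symbol, and 0 sample columns were left unused. Entries that name no gene were listed for the libraries labelled HPB-ALL, took 13.0% to 15.1% of their reads, and were left out. Jurkat control columns are headed shNTC although the labels say siRNA, and 2 LOUCY columns lack their own number and stand for the group.

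Counts were scaled with TMM, filtered with filterByExpr and tested on each whole table with edgeR 4.0.16 (quasi-likelihood F test, R 4.3.3), with Benjamini-Hochberg adjustment over all genes tested and a threshold of 0.05. The edgeR fit without a block was tested on simulated counts, for each knockdown and for LOUCY against the other lines. The replicate block and the other tools were not tested in this way. DESeq2 1.42.0, limma-voom (limma 3.58.1), RLE scaling, no filter, other library sizes, a replicate block and leaving out each library were alternatives. Replicates of a group differed by more than sampling noise (chi-square per degree of freedom 12.7 to 348). Same-numbered libraries deviated together in Jurkat (r from 0.337 to 0.556, 4 of 4 pairs above 0.1), with the numbers taken from the labels. Of 12 differently numbered Jurkat pairs, 4 were above 0.1 as well, up to 0.36.

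The members and gene lists were chosen with earlier results of these data known. Named were all messenger and ribosomal RNA members, the transfer RNAs with the highest CPM in each table or called, the nuclear copies with the highest CPM, and nuclear genes by smallest p, with a few regulators of mitochondrial RNA.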

Additional observations from a re-analysis of the deposited data

Results flagged for a closer look

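In 11 of 180 groups of 4 libraries, 1 library lay far from the other 3 by Dixon's criterion, which chance passes in about 1 of 20 groups. Among Jurkat libraries, QKI siRNA replicate 3 was the lowest for MT-CO3 at 1627 CPM, QKI siRNA replicate 1 was the highest for MT-ND4L at 1.84 CPM, and control siRNA replicate 3 had the most ribosomal per messenger RNA counts at 0.0944. Among the untreated lines, HPB-ALL replicate 1 was the highest for MT-CO2 at 4372 CPM and for MT-CO3 at 6330 CPM. A LOUCY library without a number of its own was the lowest for MT-ATP6 at 1567 CPM and for MT-ND5 at 1489 CPM. For MT-CYB, KARPAS-45 replicate 4 was the highest at 903.8 CPM, TALL-1 replicate 3 the lowest at 3499 CPM and ALL-SIL replicate 3 the lowest at 6228 CPM. For MT-CO1, DND-41 replicate 4 was the lowest at 16980 CPM.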

How the results depend on the processing

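Of the values for a comparison as a whole, 544 recomputed under an alternative stayed close and 18 moved. In Jurkat the replicate block gave 1 called member in place of 0, and 1 to 3 when a number was left out under the block. In the libraries labelled HPB-ALL the count of 6 became 12 with no filter and 1 with heavy-strand messenger RNA counts as the library size, and ran from 2 to 9 with a library left out. Their numbers do not pair them, and the replicate block gave 7, or 3 to 10 with a number left out. With heavy-strand messenger RNA as the library size the counts were 10 in LOUCY, 9 in TALL-1, 7 in DND-41 and 13 in ALL-SIL. The share of all genes called on that scale is not given, so counts on it are not read as results. With MT-ND5 and MT-CYB as the denominator, the MT-ND6 ratio in KARPAS-45 was at -1.91. The cause was not tested. In the lines, where 17 of 50 same-numbered pairs had r above 0.1, the replicate block gave 225 called pairwise differences in place of 235.

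For single genes, 2272 values kept their call and direction, 89 lost the call, 25 gained it and 14 changed sign, all in Jurkat and none called. With 1 library left out, MT-RNR2 ran from -0.018 to 0.32, MT-ND4L from -0.26 to 0.32, MT-CO2 from -0.45 to 0.056, MT-ND4 from -0.55 to 0.11, MT-ND5 from -0.51 to 0.28 and MT-CYB from -0.53 to 0.0044. The sign of MT-RNR2 and MT-ND4L turned without QKI siRNA replicate 1, and that of MT-CO2, MT-ND4, MT-ND5 and MT-CYB without QKI siRNA replicate 3. MT-ND4 and MT-ND5 also turned without control siRNA replicate 1, to 0.11 and 0.28, and MT-ND5 without QKI siRNA replicate 4, to 0.11. Under the block, MT-RNR1 was at -0.044 without number 1 and -0.019 without number 2, MT-RNR2 at -0.038 without number 2, and MT-ND4L at -0.081 and -0.000676. Depth limits MT-ATP8 and the transfer RNAs.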
